A study of Macaca mulatta with 12 samples.

Results

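KCNIP3, PTCH1, LDB2 and RASL11A are 4 of the 22584 genes listed in a table of UMI counts (unique molecular identifiers, which count captured RNA molecules) from circulating B cells of rhesus macaques. They were read in the cell subtypes of the deposited annotation and, within the subtypes named CD11c+ MBC 1 and CD11c+ MBC 2, by the immunoglobulin class of each cell. The genes were chosen with their levels in the subtypes known, and the subtypes were clustered on the same counts, so every level by subtype is a description and was not tested. Peripheral blood mononuclear cells came from 6 healthy, unmanipulated juvenile macaques of Indian origin aged 2 to 3 years. Both males were in batch 1 and the 4 females in batch 2, so sex and batch cannot be told apart. An expression library and a B cell receptor (BCR) library were made from each animal with the 10x Chromium 5' kit, and animals are named here by sex and number. The table held 13849 cells, of which 13324 carried 1 of 12 B cell names and 525 were annotated as contamination. The CD11c+ subtypes held 3763 cells, 2236 of CD11c+ MBC 1 and 1527 of CD11c+ MBC 2, with 100 (female 4) to 1198 (female 3) cells per animal. Of the cell barcodes, 96 occurred in more than 1 library, over 193 cells.

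B cells that carry CD11c, the integrin encoded by ITGAX, are a memory population known from ageing, chronic infection and autoimmunity, often called atypical or age-associated B cells. KCNIP3, also known as DREAM, is an EF-hand calcium sensor that binds Kv4 potassium channels and can act as a calcium-regulated transcriptional repressor. PTCH1 is the receptor for Hedgehog ligands: without ligand it restrains SMO, and it is itself a transcriptional target of the pathway. LDB2 has no DNA-binding activity of its own and bridges LIM-domain transcription factors into larger complexes. RASL11A is a small GTPase of the Ras superfamily.

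Of 8 markers of CD11c+ or atypical B cells, ITGAX, TBX21, CD86 and ITGAM had their highest mean in CD11c+ MBC 2. ITGAX stood at 893 ± 271 CPM (SD, n = 6 animals) in CD11c+ MBC 2, at 737 ± 219 in CD11c+ MBC 1 and at 11.3 ± 4.19 in the subtype Naive B cells 1. CPM is the UMI count of a gene per 1000000 UMIs of named genes, in the summed cells of 1 animal. TBX21, which encodes T-bet, stood at 40.0 ± 24.9 and 34.1 ± 15.8 CPM in the CD11c+ subtypes and at 1.98 ± 1.44 in Naive B cells 1. CR2, which encodes CD21 and is low on such cells, was at 0.353 ± 0.515 and 0.718 ± 0.931 CPM against 72.6 ± 28.7. CXCR5, a chemokine receptor, was not low, at 290 ± 101 and 435 ± 68.5 CPM against 401 ± 97.6. The other markers were not highest in the CD11c+ subtypes. SOX5 and ZEB2 led in Naive B cells 2, at 1273 ± 577 and 1083 ± 366 CPM, where ITGAX was at 462 ± 199. FCRL5 led in Activated B cells at 564 ± 211 CPM, against 222 ± 59.0 in CD11c+ MBC 1 and 234 ± 37.1 in CD11c+ MBC 2, and FCRL4 was under 1 CPM in both. The summed level of the 8 markers was 3608 ± 971 CPM in Naive B cells 2, 3485 ± 646 in CD11c+ MBC 2 and 2615 ± 487 in CD11c+ MBC 1. Markers of other blood cells were also counted in the CD11c+ cells, and their part in the levels of the 4 genes was not tested. The summed level of 8 T cell markers ran over the animals from 83.1 to 231 CPM in CD11c+ MBC 1 and from 57.2 to 358 in CD11c+ MBC 2. That of 6 NK cell markers ran from 13.8 to 487 and from 59.8 to 401 CPM, and that of 6 monocyte markers from 37.3 to 130 and from 31.7 to 75.2. The 5 dendritic cell markers that were listed in the table summed to 617 ± 289 and 660 ± 278 CPM in CD11c+ MBC 1 and 2, from 307 to 1075 and from 283 to 1043, the highest means of any subtype. Most of that sum was CD1C, at 499 ± 315 and 532 ± 298 CPM, and IRF8, at 118 ± 39.1 and 128 ± 32.9, both of which B cells can express. CLEC9A was at 0 in both subtypes and FLT3 in CD11c+ MBC 2, and FLT3 and CLEC4C were at 0.195 CPM or below where counted.

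KCNIP3 was the most restricted of the 4 genes. CD11c+ cells made up 28.2% of the B cells and held 33.1% of all B cell UMIs, but 92.7% of the 3449 KCNIP3 UMIs. In CD11c+ MBC 2 the lowest animal was female 2 at 55.8 CPM, the median 169 and the highest female 3 at 308, with a mean of 163 ± 93.9 CPM (SD, n = 6). In CD11c+ MBC 1 the lowest was male 1 at 35.7 CPM, the median 85.5 and the highest female 3 at 123, with a mean of 81.4 ± 37.5. Every animal had the higher level in CD11c+ MBC 2, although the 2 subtypes overlapped between animals. C-MBC 1 came next at 18.8 ± 20.1 CPM, a mean that rested on female 3 at 59.2 CPM, since the other 5 animals lay between 5.20 and 15.1. Naive B cells 2 followed at 14.3 ± 13.2 CPM from 21 UMIs. M-MBC 2 and M-MBC 1 were at 3.33 ± 2.39 and 2.66 ± 1.56 CPM, and C-MBC 2, Naive B cells 1, M-MZL BC and Activated B cells at 1.10 CPM or below. No KCNIP3 UMI was counted in the 112 Naive B cells 3 or the 43 antibody-secreting cells that entered these sums. In the order of levels, only CD11c+ MBC 1 and C-MBC 1 were neighbours whose ranges of 1 SD did not meet.

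PTCH1 was shared more widely, with 79.3% of its 3092 B cell UMIs in CD11c+ cells. Its level in CD11c+ MBC 2 ran from 35.4 CPM in female 4 over a median of 138 to 170 in female 3 (mean 111 ± 56.6). In CD11c+ MBC 1 it ran from 19.4 CPM in male 1 over a median of 64.1 to 123 in male 2 (mean 68.3 ± 42.1). The 6 animals fell into low and high levels in CD11c+ MBC 2, with male 1 and female 4 at 44.9 and 35.4 CPM and the other 4 between 136 and 170. Naive B cells 2 stood beside CD11c+ MBC 1 at 70.8 ± 58.9 CPM, from 5.24 in male 1 to 165 in female 3. The difference between these 2 subtypes, 2.53 ± 37.8 CPM within animals, was smaller than its spread. C-MBC 1 was at 34.5 ± 22.4 CPM, below CD11c+ MBC 1 in 6 of 6 animals. M-MBC 1 and M-MBC 2 did not differ beyond their spread, at 10.5 ± 10.4 and 10.5 ± 11.0 CPM, and the other subtypes lay at 3.82 CPM or below.

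LDB2 did not follow the CD11c+ label. Its CD11c+ share was 47.7% of 7792 UMIs, and its level was highest in Naive B cells 2, at 280 ± 203 CPM, where animals ranged from 61.4 (female 2) to 526 (female 3). CD11c+ MBC 1 came next at 176 ± 89.3 CPM, from 63.7 in female 2 over a median of 166 to 318 in female 1. M-MBC 1 stood at 152 ± 59.9 CPM and Naive B cells 3 at 147 ± 92.5 (n = 4), both within the spread of CD11c+ MBC 1. CD11c+ MBC 2 came after these at 116 ± 68.6 CPM, from 47.5 in female 2 over a median of 103 to 217 in female 1. C-MBC 1 at 92.6 ± 60.3 and M-MBC 2 at 92.5 ± 32.4 CPM followed. Naive B cells 1, where ITGAX was lowest, held 53.7 ± 25.0 CPM. The low end was C-MBC 2 at 20.1 ± 13.6, M-MZL BC at 15.6 ± 9.63 and Activated B cells at 11.9 ± 11.2 CPM, and no LDB2 UMI was counted in antibody-secreting cells.

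RASL11A had 69.4% of its 1723 B cell UMIs in CD11c+ cells. The level in CD11c+ MBC 2 ran from 28.4 CPM in female 4 over a median of 66.1 to 102 in male 2 (mean 65.6 ± 25.8). In CD11c+ MBC 1 it ran from 17.5 CPM in female 4 over a median of 41.6 to 51.4 in female 2 (mean 37.3 ± 14.5). CD11c+ MBC 1 was not set apart from C-MBC 1, at 31.7 ± 14.3 CPM, since only 3 of 6 animals had the higher level in CD11c+ MBC 1. All remaining subtypes with 6 animals lay between 1.98 CPM (M-MZL BC) and 11.1 CPM (M-MBC 1). The antibody-secreting cells gave 23.7 ± 32.4 CPM (n = 3) from 4 UMIs, which does not place them in the order.

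**Figure D1:**
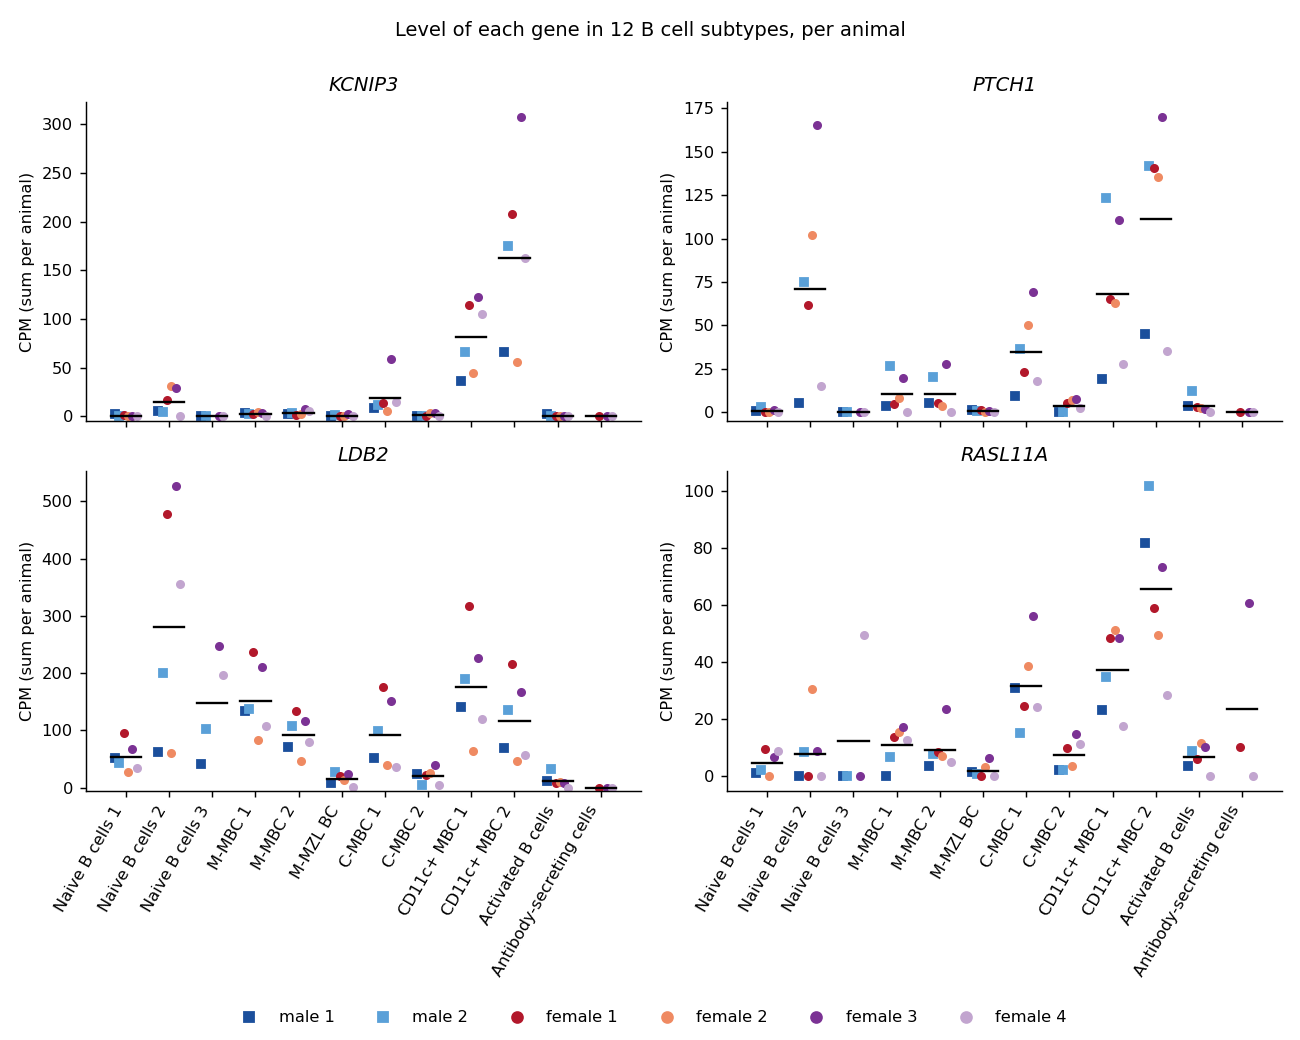
Level of each gene in CPM (vertical axes, linear, a separate scale per gene) in the 12 B cell subtypes, with 1 point per animal (squares males, circles females) and a black line at the mean of the animals. KCNIP3 stood out in the CD11c+ subtypes (81.4 and 163 CPM), whereas LDB2 was highest in Naive B cells 2 (280 CPM).

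The 4 genes split in opposite directions between the 2 CD11c+ subtypes. KCNIP3 was higher in CD11c+ MBC 2 in 6 of 6 animals, by 0.91 ± 0.41 on the log2 scale (mean ± SD of the within-animal ratios), from 0.32 in female 2 to 1.42 in male 2. PTCH1 was higher in 6 of 6 as well, by 0.76 ± 0.44, from 0.20 in male 2 to 1.21 in male 1. RASL11A was higher in 5 of 6 by 0.81 ± 0.73, with the largest ratios in male 1 (1.82) and male 2 (1.55) and the smallest in female 2 (-0.06). LDB2 went the other way in every animal, at -0.66 ± 0.30, from -1.07 in female 4 to -0.42 in female 2. ITGAX itself was higher in CD11c+ MBC 2 by 0.27 ± 0.18. CD11c+ MBC 2 cells were also deeper, with a mean over animals of the median UMI count of 7279 per cell against 5345, and had a lower share of UMIs from ribosomal protein genes in 6 of 6 animals, for example 11.6% against 13.2% in female 1. Leaving ribosomal protein genes out of the library sizes gave KCNIP3 means of 192 and 97.3 CPM and LDB2 means of 136 and 211, and all 4 genes kept the direction between their means.

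**Figure D2:**
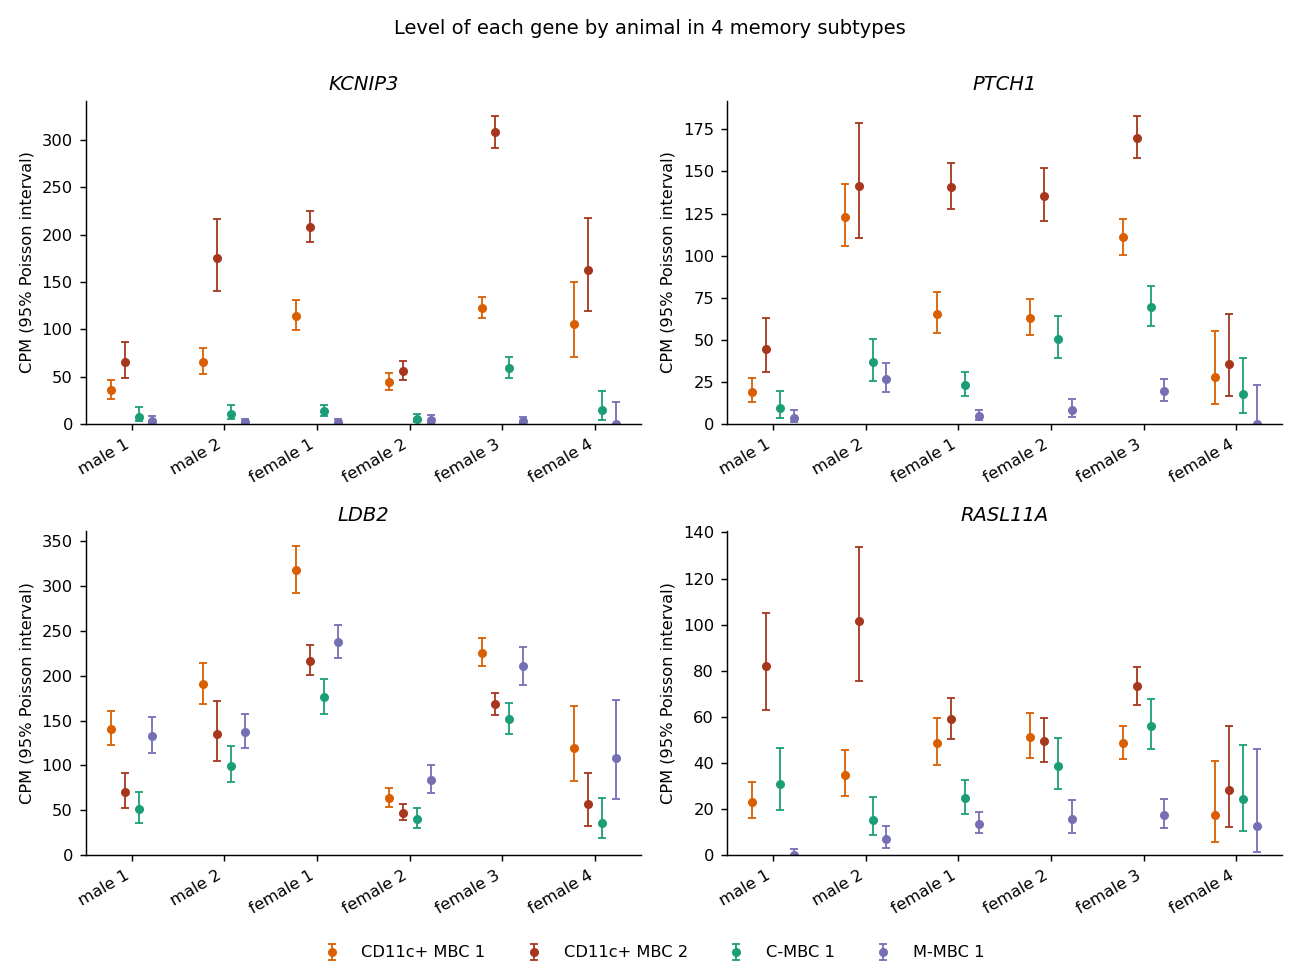
Level of each gene in CPM (vertical axes, from 0) in the 6 animals, in CD11c+ MBC 1, CD11c+ MBC 2, C-MBC 1 and M-MBC 1. Bars are exact 95% Poisson intervals, which cover counting error only. LDB2 was lower in CD11c+ MBC 2 than in CD11c+ MBC 1 in every animal, and the other genes were higher there in 5 or 6 of 6.

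Differences between animals exceeded the counting error. In all CD11c+ cells of an animal together, KCNIP3 ran from 45.5 CPM in male 1 (exact 95% Poisson interval 37.2 to 54.9) to 221 in female 3 (211 to 232). The animals did not keep 1 order across the genes. Only female 3 exceeded male 2 for PTCH1, at 142 CPM (134 to 151) against 128 (113 to 145), but 3 females exceeded male 2 for KCNIP3, at 94.0 CPM (80.9 to 109). Female 1 was highest for LDB2 at 255 CPM (241 to 269), and female 2 lowest at 55.6 (48.9 to 63.1). Female 2 nevertheless had PTCH1 at 98.9 CPM and RASL11A at 50.4. These sums pool the 2 subtypes, whose mix differed between animals. CD11c+ MBC 2 made up 116 of 546 cells in male 2 and 551 of 1198 in female 3. For PTCH1, male 2 exceeded female 3 in CD11c+ MBC 1 (123 against 111 CPM), not in CD11c+ MBC 2 (142 against 170). For KCNIP3, male 2 exceeded female 4 in CD11c+ MBC 2 (175 against 163 CPM), not in CD11c+ MBC 1 (65.8 against 105). For LDB2, female 1 was highest and female 2 lowest in both CD11c+ subtypes. In the other subtypes with 50 or more LDB2 UMIs and all 6 animals, female 1 was highest in Naive B cells 1, M-MBC 1, M-MBC 2 and C-MBC 1, female 3 in Naive B cells 2 and C-MBC 2, and male 2 in M-MZL BC and Activated B cells. The lowest there was female 2 or female 4.

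Single cells held few UMIs of each gene. CD11c+ cells with any UMI of KCNIP3 had 2.42 on average and at most 14, and the corresponding values were 1.80 and 10 for PTCH1, 1.99 and 11 for LDB2 and 1.58 and 8 for RASL11A. To compare shares of cells across depths, each cell with 2000 or more UMIs was thinned to 2000 UMIs. Shallower cells were left out, among them 34 of CD11c+ MBC 1, 2 of CD11c+ MBC 2, 42 Naive B cells 1 and 156 of 446 Naive B cells 2. A KCNIP3 UMI was then found in 23.5% ± 11.6 (SD, n = 6 animals) of CD11c+ MBC 2 and 12.5% ± 5.73 of CD11c+ MBC 1 cells, against 0.0994% ± 0.165 in Naive B cells 1. Without thinning the shares were 46.5%, 23.6% and 0.250%, at median depths of 7279, 5345 and 4482 UMIs per cell. The thinned KCNIP3 share in C-MBC 1 was 2.88% ± 3.58. PTCH1 was found in 14.9% ± 7.79 and 9.93% ± 6.41 of thinned cells against 0.139% ± 0.158 in Naive B cells 1, and in 40.6%, 22.7% and 0.283% before thinning. In thinned Naive B cells 2 the PTCH1 share was 10.5% ± 6.30, beside that of CD11c+ MBC 1. RASL11A was found in 10.2% ± 4.07 and 5.57% ± 1.69 against 1.17% ± 1.29, and in 26.1%, 13.3% and 2.04% before thinning. LDB2 was found in 17.8% ± 9.21 of thinned CD11c+ MBC 2 and 23.4% ± 10.9 of CD11c+ MBC 1 cells. Its share in Naive B cells 1 was 8.13% ± 4.28, and its lowest share in a subtype with 6 animals was 1.37% ± 1.37, in Activated B cells. Before thinning, LDB2 was found in 40.4% and 46.8% of the CD11c+ cells and 17.1% of Naive B cells 1. Its thinned shares in Naive B cells 2 and M-MBC 1, at 23.3% ± 15.0 and 22.8% ± 7.52, lay beside that of CD11c+ MBC 1. A subtype difference in a summed level can come from more cells with the RNA or from more RNA per cell, and these counts do not tell them apart.

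Among thinned cells, those in which several of the genes were found together were a minority. Thinning lowers the share of cells in which a gene is found. Without it, KCNIP3 was found in 46.5%, PTCH1 in 40.6%, LDB2 in 40.4% and RASL11A in 26.1% of CD11c+ MBC 2 cells (means over animals). How often several of the genes were found together without thinning was not counted. Of 1525 thinned CD11c+ MBC 2 cells, 44.5% had a UMI of none of the 4, 39.0% of 1, 13.2% of 2, 3.21% of 3 and 0.131% of all 4. In the 2202 thinned CD11c+ MBC 1 cells the corresponding shares were 55.5%, 35.4%, 8.17%, 0.908% and 0%. Among CD11c+ MBC 2 cells, those with a PTCH1 UMI had a RASL11A UMI in 15.0% ± 4.81 of cases, and those without in 10.4% ± 3.73 (higher in 4 of the 4 animals with at least 10 cells that had a PTCH1 UMI). In CD11c+ MBC 1 the order was the other way in the 4 animals with at least 10 such cells, at 4.43% ± 1.36 against 6.91% ± 0.517, whereas male 1, with 6 such cells, had 33.3% against 2.78%. No other pair was ordered 1 way in every animal: cells with a KCNIP3 UMI had an LDB2 UMI more often in 2 of 6 animals in each subtype, and a PTCH1 UMI more often in 4 (CD11c+ MBC 2) or 3 (CD11c+ MBC 1) of the 6. These shares rest on few cells and were not tested.

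Whether the genes differ with class switching was asked within each CD11c+ subtype. The class came from the BCR library. Because the genes were proposed with levels by class in view, these comparisons are not shown to be independent of their choice. Switched cells, nearly all IgG, made up 13.6% (male 2) to 68.6% (female 4) of CD11c+ MBC 1 cells of known class, and 44.3% (male 2) to 93.8% (female 4) of CD11c+ MBC 2 cells. None of the 4 genes passed the test in either subtype (edgeR's quasi-likelihood test with the animal as a block, Benjamini-Hochberg adjusted p under 0.05 over 6467 genes). Among all genes tested, 0.325% were called in CD11c+ MBC 1 and 0.85% in CD11c+ MBC 2. SOX5, a marker of these cells, was among the genes that fell in switched cells, by 0.44 ± 0.08 and 0.51 ± 0.08 (log2 difference ± SE).

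KCNIP3 in CD11c+ MBC 1 was at 77.3 ± 34.5 CPM in unswitched and 89.2 ± 50.4 in switched cells (n = 6 animals each), from 37.0 to 115 and from 23.8 to 134. Male 2 went from 61.2 to 134 CPM, whereas female 2 went from 45.2 to 26.1, and 3 of 6 animals had the higher level in switched cells. The log2 difference was 0.07 ± 0.18 (SE; 95% interval -0.29 to 0.44). In CD11c+ MBC 2, where female 4 had too few unswitched cells, KCNIP3 stood at 146 ± 101 CPM in unswitched (n = 5) and 172 ± 99.8 in switched cells (n = 6). The log2 difference there was 0.11 ± 0.15 (-0.20 to 0.42). Both intervals leave out a 2-fold difference between the classes.

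PTCH1 differed by 0.20 ± 0.17 (-0.15 to 0.55) in CD11c+ MBC 1 and by -0.03 ± 0.15 (-0.34 to 0.28) in CD11c+ MBC 2 on the log2 scale. Its means were 62.9 ± 43.7 and 68.5 ± 49.1 CPM in unswitched and switched cells of CD11c+ MBC 1, and 123 ± 52.4 and 109 ± 61.2 in those of CD11c+ MBC 2. LDB2 differed by -0.11 ± 0.13 (-0.38 to 0.16) and 0.01 ± 0.15 (-0.29 to 0.32), with means of 180 ± 93.0 and 169 ± 99.2 CPM in CD11c+ MBC 1 and 132 ± 66.9 and 125 ± 74.4 in CD11c+ MBC 2. In each of these comparisons the animals lay in 2 directions and the groups overlapped over most of their range.

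RASL11A had the class difference with the smallest p, in CD11c+ MBC 1. Unswitched cells were at 32.8 ± 18.6 CPM, from 0 in female 4 (16 cells) to 49.6, and switched cells at 48.2 ± 24.6, from 22.7 to 87.7. The log2 difference of 0.55 ± 0.24 (0.07 to 1.03) had an unadjusted p of 0.0257 and an adjusted p of 0.613 by edgeR's quasi-likelihood test, and 4 of 6 animals were higher in switched cells. At an unadjusted p under 0.05, 6.91% of all genes passed. The difference in CD11c+ MBC 2 was 0.11 ± 0.23 (-0.35 to 0.57). The change of the class difference between the 2 subtypes was tested as an interaction, and it was -0.44 ± 0.32 for RASL11A with an adjusted p of 1. By that edgeR test 0% of genes were called and 3.97% had an unadjusted p under 0.05, and DESeq2 called 0 genes as well.

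**Figure D3:**
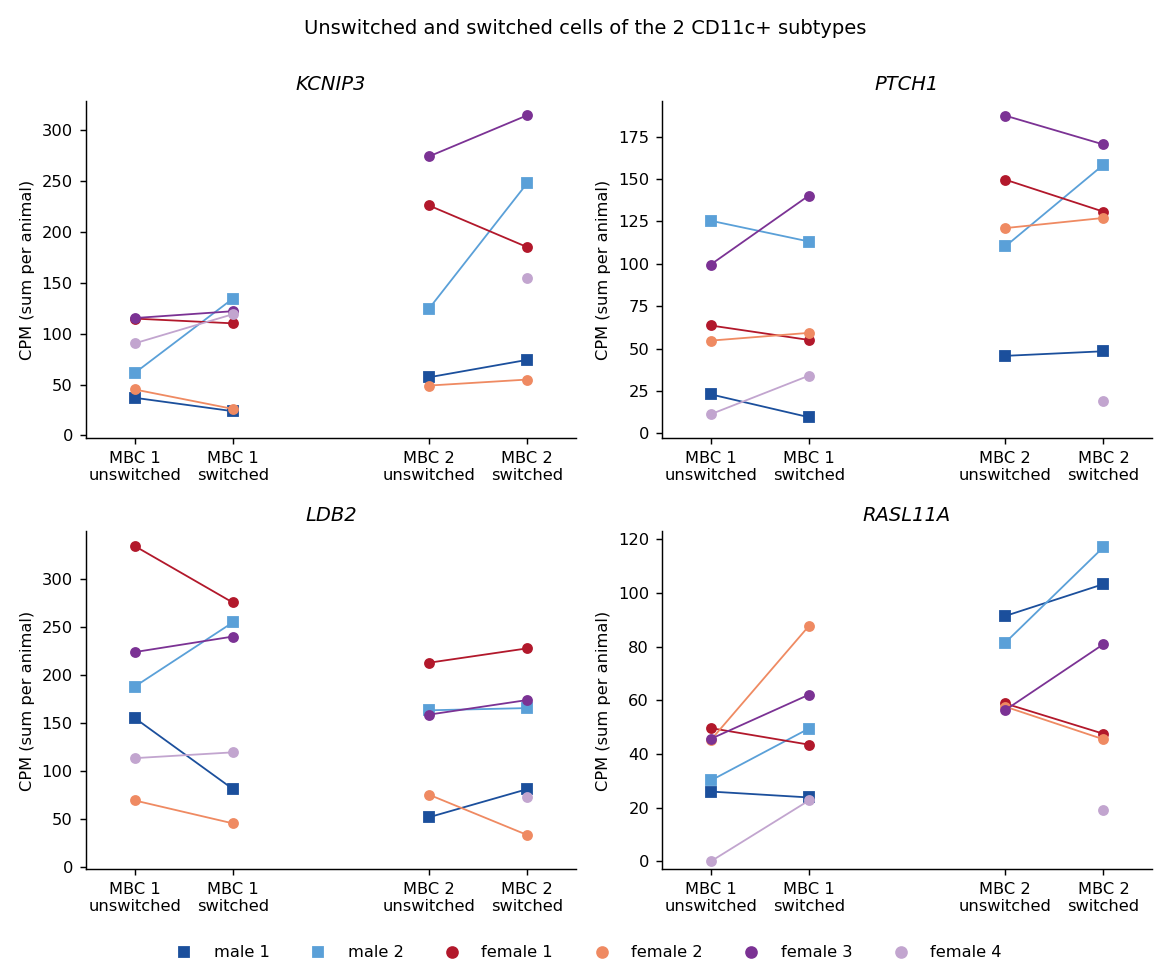
Level of each gene in CPM (vertical axes, linear) in unswitched and switched cells of CD11c+ MBC 1 and CD11c+ MBC 2, with lines joining the classes of 1 animal. Female 4 had too few unswitched CD11c+ MBC 2 cells and has a single point there. Lines ran upward and downward for every gene, and none of the 8 class differences passed the adjusted threshold.

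The 4 genes were also compared by mutation of the heavy chain. Somatic hypermutation adds base changes to the variable region of B cells that have taken part in an immune response. Among unswitched CD11c+ MBC 1 cells, a cell was called mutated where its IGHV region differed by 1 or more per 100 bases from the nearest sequence that was common in the same animal, and less mutated otherwise. Of 1307 cells with such a reference, 334 were mutated and 973 less mutated, and 823 of the latter matched the reference exactly. Female 4, with 5 cells in all, was left out. LDB2 and RASL11A fell in mutated cells and KCNIP3 and PTCH1 did not pass the test, in a comparison in which 2.32% of 6204 genes were called and 0.967% were called lower.

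LDB2 was lower in the mutated cells of 5 of 5 animals. It went from 179 to 102 CPM in male 1, from 202 to 127 in male 2, from 387 to 211 in female 1, from 86.7 to 52.1 in female 2 and from 243 to 152 in female 3. The less mutated cells of each animal were above its own mutated cells, although the ranges overlapped between animals. Means were 220 ± 110 CPM in less mutated and 129 ± 59.2 in mutated cells (SD, n = 5). The log2 difference was -0.76 ± 0.12 (SE; 95% interval -0.99 to -0.52), with an adjusted p of 1.58e-05 by edgeR's quasi-likelihood test. When only cells with 2 or more differences per 100 bases counted as mutated, it was -1.10. The call held in 10 of 11 alternatives, the exception being the fit without the animal block, where no gene was called. Over these alternatives the adjusted p ran from 1.73e-07 to 1.00.

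RASL11A rested on fewer counts. It went from 20.9 to 33.8 CPM in male 1, from 36.8 to 12.7 in male 2, from 61.6 to 25.4 in female 1, from 56.3 to 33.2 in female 2 and from 48.4 to 18.1 in female 3. Thus 4 of 5 animals were lower and male 1 was higher, and the mutated sums held only 3 to 14 UMIs of the gene. The log2 difference was -0.88 ± 0.25 (-1.39 to -0.38), with an adjusted p of 0.0465 by edgeR's quasi-likelihood test. The call was lost in 7 of 11 alternatives: with DESeq2 (adjusted p 0.857), with other library sizes (0.0508), without male 2 (0.171), female 1 (0.266), female 2 (0.141) or female 3 (0.333), and without the block. All 11 estimates were negative, from -1.54 to -0.74, and their adjusted p ran from 0.00134 to 1.00.

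KCNIP3 was at 70.8 ± 34.2 CPM in less mutated and 87.4 ± 53.4 in mutated cells. Male 1, female 1 and female 3 were higher in mutated cells, at 50.8 against 29.8, 121 against 106 and 165 against 105 CPM, and male 2 and female 2 were lower. The log2 difference of 0.33 ± 0.16 (0.01 to 0.65) had an adjusted p of 0.417 by edgeR's quasi-likelihood test. PTCH1 was at 74.1 ± 42.1 and 73.2 ± 38.4 CPM, with a log2 difference of 0.01 ± 0.17 (-0.33 to 0.35).

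**Figure D4:**
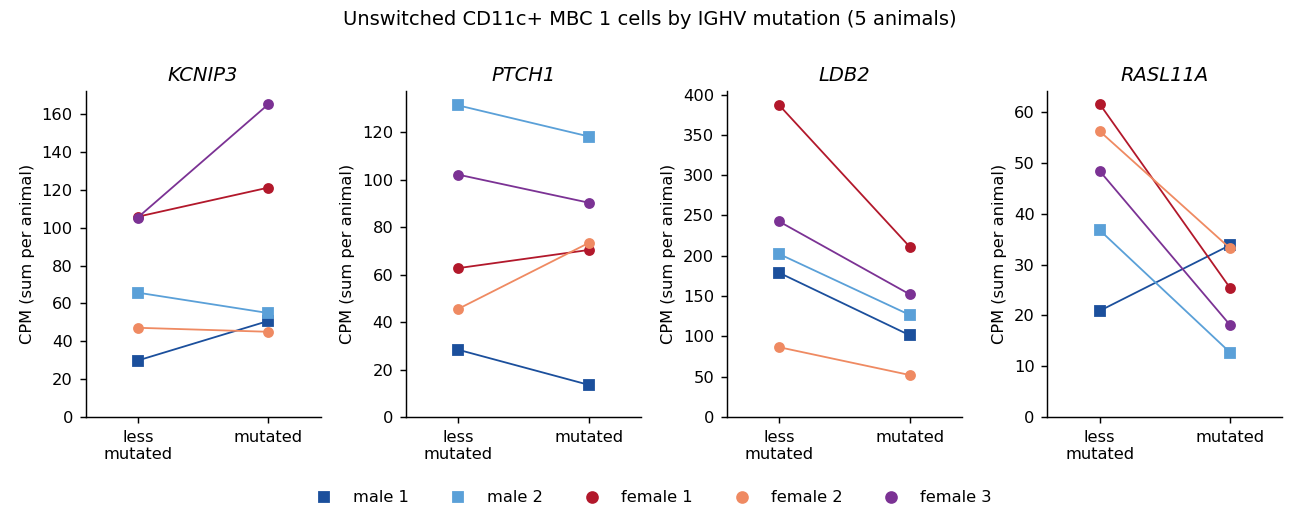
Level of each gene in CPM (vertical axes, from 0) in less mutated and mutated unswitched CD11c+ MBC 1 cells, with lines joining the 2 sums of each of 5 animals. All 5 LDB2 lines fell, 4 of 5 RASL11A lines fell, and KCNIP3 and PTCH1 lines ran in both directions.

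The depth of the mutation groups was alike, with a mean over animals of the median UMI count of 5537 ± 1489 in less mutated and 5606 ± 1532 in mutated cells. ITGAX was at 779 ± 253 and 709 ± 166 CPM, and the share of IgD among the cells was 30.4% ± 14.9 and 23.9% ± 12.3. Other markers moved with the split. CD86, a costimulatory ligand that is high in CD11c+ MBC 2 (847 ± 234 CPM, against 368 ± 113 in CD11c+ MBC 1), rose from 262 ± 72.3 to 491 ± 140 CPM. The B cell markers MS4A1 and CD79A fell, CD79A from 2341 ± 472 to 1965 ± 350 CPM. Of 3 naive cell markers, TCL1A went from 35.1 ± 36.8 to 11.7 ± 21.9 CPM, lower in 5 of 5 animals. FCER2 was at 10.2 ± 12.4 and 7.10 ± 11.7 CPM, lower in 3 of 5, and IL4R at 46.8 ± 18.8 and 46.2 ± 9.84, also lower in 3 of 5. Only 1 of these 3 markers was tested, and it did not pass. Of 8 T cell markers, 3 were tested, of which CD3D rose from 17.7 ± 7.79 to 45.5 ± 18.6 CPM and CD3G from 12.7 ± 8.63 to 35.8 ± 28.0. CD3E was higher in mutated cells in 4 of 5 animals, with means of 14.6 CPM in less mutated and 24.2 in mutated cells. CD2, CD4, CD8A and TRAC were each lower in mutated cells in 3 of 5 animals. The means of CD2, CD8A and IL7R were lower in mutated cells, for example CD2 at 18.8 ± 5.43 against 24.8 ± 10.5 CPM. Those of CD4 and TRAC were higher, at 13.0 against 8.05 and 7.93 against 6.13 CPM. The summed T cell markers had a mean of 109 CPM in less mutated and 168 in mutated cells. Over the animals they ran from 68.3 to 166 CPM in less mutated and from 94.7 to 217 in mutated cells. The part of these shifts in the LDB2 and RASL11A differences was not tested.

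The same split in other unswitched subtypes, chosen after seeing the data and not tested, gave LDB2 the same direction in most animals outside Activated B cells. In M-MBC 1 its level went from 189 ± 57.6 to 88.8 ± 59.3 CPM, lower in 5 of 5 animals, for example from 156 to 43.9 in male 1 and from 266 to 142 in female 1. In M-MBC 2 it went from 122 ± 65.1 to 57.2 ± 25.1 CPM, lower in 4 of 5, with female 2 at 40.0 and 50.9 the exception. In M-MZL BC it went from 29.6 ± 14.1 to 9.82 ± 8.42 CPM, lower in 5 of 5. In Activated B cells LDB2 was at 23.6 ± 36.6 and 7.62 ± 6.35 CPM from 34 UMIs, lower in 2 of 4 animals. In CD11c+ MBC 2, with 3 animals of enough cells, it went from 228 ± 18.6 to 135 ± 47.4 CPM, lower in 3 of 3. RASL11A in CD11c+ MBC 2 went from 74.0 ± 17.5 to 38.2 ± 19.5 CPM, lower in 2 of 3. It was lower in 4 of 5 animals in M-MBC 1, at 10.4 ± 6.84 and 7.58 ± 6.10 CPM, and in 1 of 5 in M-MBC 2, at 5.91 ± 8.46 and 8.46 ± 12.3. PTCH1 in CD11c+ MBC 2 went from 162 ± 51.9 to 136 ± 27.3 CPM, lower in 3 of 3. KCNIP3 there went from 170 ± 70.8 to 243 ± 60.4 CPM, higher in 3 of 3.

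Females and males were compared in all CD11c+ cells together, and none of the 4 genes passed the test, against 0.377% of 9808 genes called. KCNIP3 stood at 144 ± 72.3 CPM in 4 females and 69.7 ± 34.4 in 2 males, with the groups overlapping because female 2 was at 50.1. Its log2 difference was 0.98 ± 0.56 (SE, 95% interval -0.28 to 2.24), with an adjusted p of 0.428 by edgeR's quasi-likelihood test. CD11c+ MBC 2, where KCNIP3 was higher, made up 164 of 577 and 116 of 546 cells in the males. In the females it made up 370 of 686, 284 of 656, 551 of 1198 and 42 of 100. The comparison did not adjust for this mix. Over 12 alternatives, which included each subtype alone, the KCNIP3 difference ran from 0.55 to 1.58. PTCH1 differed by 0.26 ± 0.60, LDB2 by -0.07 ± 0.53 and RASL11A by -0.03 ± 0.33. The intervals of PTCH1 (-1.10 to 1.62) and LDB2 (-1.26 to 1.12) include a 2-fold difference in either direction.

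**Figure D5:**
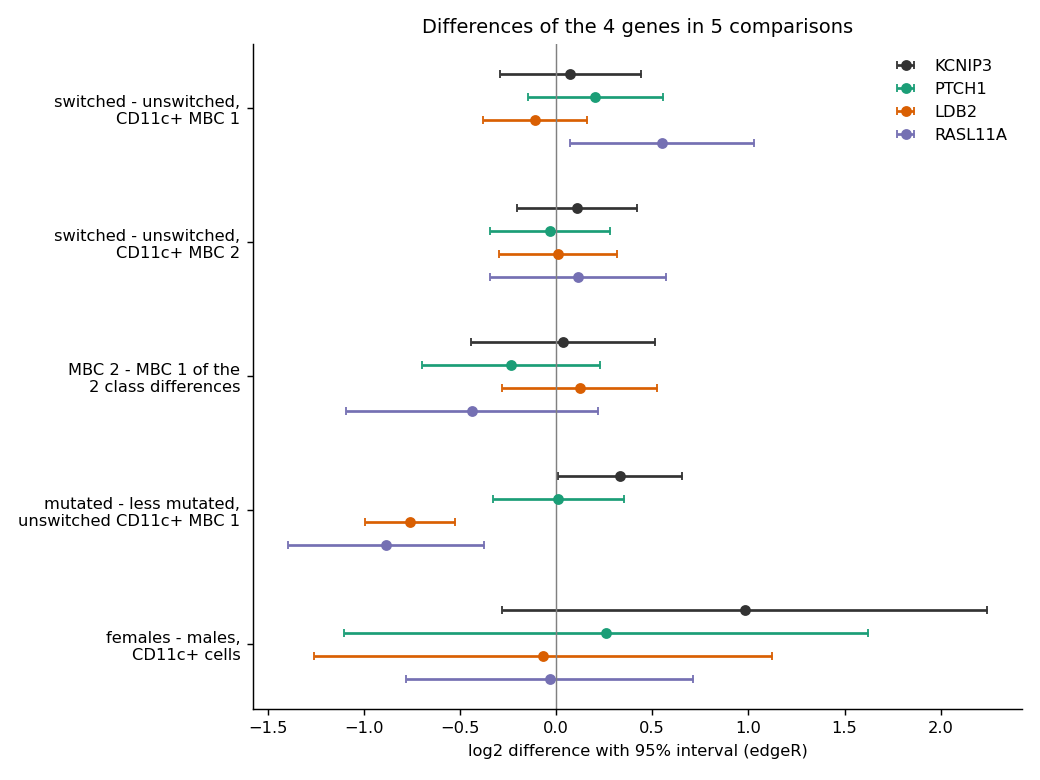
Log2 difference of each gene with its 95% interval (horizontal axis) in the 5 comparisons tested with edgeR. The LDB2 and RASL11A intervals lie below 0 for mutated against less mutated cells (-0.76 and -0.88), and the sex comparison has the widest intervals.

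The other genes of each family or pathway show how much of it the CD11c+ cells carried. In a list of 18 genes for neuronal calcium sensors, Kv4 channels and their partners, KCNIP3, KCNIP2 and HPCAL1 were among the 4 that reached a mean of 20 CPM in a CD11c+ subtype. KCNIP2, a paralog of KCNIP3, was at 20.9 ± 4.85 CPM in CD11c+ MBC 1 and 17.0 ± 8.89 in CD11c+ MBC 2, and was highest in Naive B cells 2. KCNIP1 and KCNIP4 were at 1.12 CPM or below in both. The Kv4 channel genes KCND1, KCND2 and KCND3 were at 2.26 CPM or below. No gene of the list passed any of the 5 tests, in which 3 to 6 were tested.

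Of 22 Hedgehog pathway genes, 5 reached 20 CPM: PTCH1, SCUBE1, DISP1, SUFU and MGRN1. The ligand genes were close to absent, with 0 UMIs of SHH, 7 of IHH and 21 of DHH in all cells. SCUBE1, of the family that helps release Hedgehog ligands from cells, was at 20.5 ± 12.1 and 32.4 ± 23.4 CPM in the CD11c+ subtypes and 0.367 in Naive B cells 1. It was not particular to CD11c+ cells, at 32.2 CPM in Naive B cells 2 and 16.0 in C-MBC 1. BOC, a co-receptor, was at 9.98 ± 5.34 and 8.99 ± 3.54 CPM. SMO, which transduces the signal that PTCH1 restrains, was at 0.908 ± 1.42 and 0.814 ± 1.59 CPM, from 33 UMIs in all cells. The transcription factors GLI1, GLI2 and GLI3 were at 0.738 CPM or below, and their restraining partner SUFU at 21.8 ± 9.45 and 14.2 ± 7.47. With 4 to 8 genes tested, no Hedgehog gene passed any of the 5 tests. In the mutation comparison DISP1, which helps export the ligands, differed by -0.63 ± 0.28 with an adjusted p of 0.355 by edgeR's quasi-likelihood test.

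Of 23 LIM-domain partners and members of LDB complexes, 9 reached 20 CPM in a CD11c+ subtype. LDB1, the paralog of LDB2, was at 34.7 ± 13.0 and 23.7 ± 8.17 CPM and was highest in Naive B cells 3. Among LIM-only partners, LMO4 was at 49.3 ± 21.1 and 45.8 ± 13.1 CPM and LMO2 at 13.1 ± 11.0 and 10.5 ± 8.92. The single-stranded DNA-binding proteins, which stabilise LDB complexes, were led by SSBP4 at 141 ± 58.8 and 154 ± 61.0 CPM and SSBP2 at 140 ± 7.63 and 128 ± 36.3. LDB2 was the only 1 of 9 tested genes that passed the mutation test. SSBP2 came next with a log2 difference of -0.38 ± 0.13 and an adjusted p of 0.121 by edgeR's quasi-likelihood test. The median difference of the 9, LDB2 included, was -0.19, beside -0.0037 over all genes. This was not particular to the list: medians were -0.25 for the Hedgehog genes and -0.28 for the small GTPases. The calcium sensor list had a median of 0.13, and each of these 3 lists had 4 tested genes. No gene of this list passed another test.

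Of 17 small Ras-like and RGK GTPases, 4 reached 20 CPM: RASL11A, GEM, DIRAS1 and DIRAS2. RASL11B, the closest relative of RASL11A, had 1 UMI in all cells. DIRAS1 was at 86.0 ± 22.5 and 84.1 ± 16.5 CPM and DIRAS2 at 57.0 ± 27.3 and 78.6 ± 37.1, without the concentration in CD11c+ cells that RASL11A had, since Naive B cells 1 were at 38.1 and 54.0. RASL11A was the only 1 of 4 tested genes that passed the mutation test, where DIRAS1 differed by -0.25 ± 0.16 with an adjusted p of 0.607 by edgeR's quasi-likelihood test.

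The genes with the subtype patterns nearest to each of the 4 were found by Pearson's r of log2(CPM + 1) over the 12 subtype means, among 8405 genes. These values describe 12 points that share libraries. Nearest to KCNIP3 were AFAP1L2 (r = 0.977), JPH3 (0.965), HSPB1 (0.950), STAC2 (0.949) and NMB (0.946), and PTCH1 ranked at place 7 with 0.939. Nearest to PTCH1 were SH3GL1 (0.962), EEPD1 (0.960), SCUBE1 (0.956), AFAP1L2 (0.954) and ROR1 (0.941). RASL11A was nearest to PCBD1 (0.935), ITGAV (0.908), ASCL2 (0.907), HSPB1 (0.901) and JPH3 (0.896), so it shared HSPB1 and JPH3 with KCNIP3. LDB2 had other neighbours: C9orf72 (0.961), ZNF667 (0.960), NLRP1 (0.954), GLIPR1L2 (0.949) and ADD1 (0.945). Its r was 0.549 with KCNIP3, 0.607 with PTCH1 and 0.218 with RASL11A.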

How the data were processed

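Raw UMI counts per gene and cell were deposited as 1 matrix, with a cell table giving library, subtype, doublet call and the percent of UMIs from mitochondrial and ribosomal protein genes. BCR files gave contigs with their constant gene, IGHV region and counts of UMIs, per the file headers. The submitters' processing notes name Seurat 5.0.1, Cell Ranger 9.0.1 and R 4.3.1. Genome build and annotation: not given in the sources used here. All 13849 cells carried the doublet call Singlet, and no further filter or doublet caller was applied.

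The members and gene lists were chosen with earlier results of these data known. For each gene list, the genes that passed a test, or otherwise the smallest p-values, are named, and for each member the 5 genes nearest in pattern. Raw counts were summed per animal, subtype and group, and sums of under 10 cells were left out. CPM is UMIs per 1000000 UMIs of named genes, without 5813 unnamed identifiers (14.9% of UMIs) and 23 immunoglobulin genes (0.186%). Total B cell UMIs ran from 3563778 (female 4) to 19518978 (female 3). In R 4.3.3, edgeR 4.0.16 tested these sums by its quasi-likelihood test after filterByExpr and TMM scaling, with Benjamini-Hochberg adjustment. The animal was the block except between the sexes, since both groups of cells came from the same animal, and same-animal deviations correlated at 0.191 to 0.774 over 11 pairs. Class was taken from cells with 1 productive heavy chain (10293 B cells); 2636 had none and 282 had 2 or more. A common IGHV sequence was one seen with 3 or more different CDR3 in unswitched B cells of the animal, which gave 320. Because the reference is common in the animal, a mutated sequence shared by several lineages would be taken as unmutated.

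Simulated data were made with the same spread beyond counting error for every gene. Between the sexes no further difference between animals was simulated, although KCNIP3 ran from 45.5 to 221 CPM over the animals. The recovered shares apply to these settings only and may be too high for genes that vary more. The fit was tested on these simulated data. It recovered 27.4% of genes changed by a log2 of 1 and 95.6% of those changed by 2 in the mutation design, 36.4% and 97.9% in the CD11c+ MBC 2 class design, and 12.2% and 73.2% between the sexes, over 5948, 6230 and 9602 genes. Alternatives were DESeq2 1.42.0, no low-count filter, other library sizes, no block, sums of 20 or more cells, other class or mutation rules and leaving out each animal. Promoter motifs and sequences were not analysed here, and some genes of the lists are not reported here. The labels give each animal as a separate sample of blood, so the spread is between animals.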

Additional observations from a re-analysis of the deposited data

Results flagged for a closer look

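A member's level was examined in 66 groups of 4 to 6 animals, by subtype and by class or mutation group of the CD11c+ cells. In 9 of them, all levels by subtype, 1 animal lay apart by the gap to its nearest neighbour over the whole range. For normally distributed values, chance alone marks about 1 in 20 such groups. That rate does not hold where several animals are at 0, such as for KCNIP3 in Activated B cells (4 of 6 animals). For KCNIP3 the largest was female 3 in C-MBC 1, at 59.2 CPM with the next animal at 15.1. The other KCNIP3 values were male 1 in Naive B cells 1 (2.51 CPM, 4 UMIs) and in Activated B cells (2.75 CPM, 3 UMIs), and female 3 in M-MZL BC (2.36 CPM, 3 UMIs). In Activated B cells, male 2 stood apart for PTCH1 at 12.2 CPM and for LDB2 at 33.3 CPM. RASL11A stood apart in female 3 in M-MBC 2 (23.5 CPM, 16 UMIs) and in female 2 in Naive B cells 2 (30.7 CPM, 3 UMIs). Its value in female 4 in Naive B cells 3 (49.3 CPM) was a single UMI in 13 cells, with the other animals of 10 or more cells at 0, so that 1 count fixed the gap.

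The cells annotated as contamination, used in no comparison, also held UMIs of the 4 genes: 14 of KCNIP3, 20 of PTCH1, 136 of LDB2 and 6 of RASL11A in 525 cells.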

How the results depend on the processing

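Of the alternative values for the members' log2 differences, 203 kept their direction and side of the threshold, 8 lost a call and 33 changed sign, all of the latter for differences that had not passed the test. Mutated sums held 3 to 14 RASL11A UMIs per animal, female 4 gave 100 CD11c+ cells, and the sexes were 2 males and 4 females. The subtype names and the depth of each cell are the authors', and the cause of the changes below was not tested.

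Without the replicate block (the animal), genes called went from 21 to 0 for class in CD11c+ MBC 1, from 55 to 1 in CD11c+ MBC 2 and from 144 to 0 for mutation. LDB2 in mutated cells was then -0.77 and RASL11A -0.84, both with an adjusted p of 1.00, PTCH1 was -0.050, LDB2 by class in CD11c+ MBC 2 was -0.070 and the KCNIP3 interaction -0.032. Without a filter, genes called were 49, 118, 7 (interaction), and 200 between the sexes against 37, and PTCH1 by mutation was -0.026 and RASL11A by sex 0.0088. With DESeq2, 36 genes were called for mutation and 297 for sex, and LDB2 by class in CD11c+ MBC 2 was -0.036. Fitting 1 subtype alone gave 49 and 84 genes for class. In CD11c+ MBC 1 alone, 24 genes were called between the sexes, with PTCH1 at -0.098, LDB2 at 0.051 and RASL11A at 0.50, and in CD11c+ MBC 2 alone LDB2 was at 0.22. At 2 or more differences per 100 bases PTCH1 was -0.13. Unthinned shares of cells are given in the report.

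Leaving out 1 animal at a time, genes called ran from 12 to 22 and from 21 to 64 for class, from 0 to 2 for the interaction, from 66 to 127 for mutation and from 6 to 456 between the sexes. Class counts were moved by over 1.5 times without male 2 (13), female 2 (13) or female 3 (12) in CD11c+ MBC 1 and without female 1 (34) or female 3 (21) in CD11c+ MBC 2. The mutation count was 66 without female 3. The sex count was 6 without male 1, 12 without female 1, 456 without female 2, 14 without female 3 and 21 without female 4; without a male the other male is assumed to vary like the females. By class in CD11c+ MBC 1, KCNIP3 ran from -0.090 to 0.17 and PTCH1 from -0.092 to 0.29. In CD11c+ MBC 2, PTCH1 ran from -0.12 to 0.076, LDB2 from -0.078 to 0.13 and RASL11A from -0.074 to 0.25. The interaction ran from -0.068 to 0.19 for KCNIP3 and from -0.42 to 0.12 for PTCH1. By mutation, PTCH1 ran from -0.13 to 0.092 and RASL11A from -1.16 to -0.74. Between the sexes, PTCH1 ran from -0.47 to 1.73, LDB2 from -0.40 to 0.24 and RASL11A from -0.22 to 0.13.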
